A study of Mus musculus with 24 samples.

Results

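Bdnf, Ntf3, Ntrk2, Ntrk3 and Sort1 are 5 genes of neurotrophin signalling, chosen by symbol, and they are followed here through their 47 annotated transcripts among the 55177 genes of 24 RNA-seq libraries. All libraries came from mouse cortical neurons taken at embryonic day 16.5 and grown in culture, with the cortex of each embryo treated as a separate biological replicate per the labels. Cultures were silenced overnight with 1 µM tetrodotoxin and 100 µM D-AP5, which block sodium channels and NMDA receptors, and were then either left at rest or depolarized with 50 mM KCl for 30 min. At 7 days in vitro (DIV7), wild-type neurons also received 0.1% DMSO in both states, with 2 libraries at rest and 2 after KCl.

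At 18 days in vitro (DIV18), neurons carried either a non-targeting CRISPR guide (NT) or a guide against Smarcc2, a subunit of the BAF chromatin remodelling complex. NT neurons gave 2 libraries at rest and 2 after KCl. Smarcc2 knockout neurons with empty vector gave 3 and 3, and knockout neurons with added wild-type Smarcc2 gave 2 and 3. The phosphosite variants were measured in 1 state each, S586E at rest in 3 libraries and S586A after KCl in 2. DIV7 libraries were made from poly(A) RNA and DIV18 libraries from rRNA-depleted RNA, so age and library preparation cannot be told apart. In CPM, which are estimated counts normalised to library size, Smarcc2 itself was at 237 to 283 in NT libraries, 47.1 to 64.1 in knockout libraries with vector and 737 to 1340 in libraries with an added Smarcc2, and the labels therefore matched the targeted gene. It was at 1160 to 1280 CPM with S586E and 756 to 816 CPM with wild type at rest (edgeR adjusted p = 0.114). After KCl it was at 1300 to 1340 CPM with S586A and 737 to 1090 CPM with wild type (edgeR adjusted p = 0.338). Variant and Smarcc2 level therefore cannot be told apart in comparisons with wild type. Neuron markers were present throughout, with summed levels of 3980 to 6120 CPM over 9 genes, and astrocyte markers were also present in every group.

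Neurotrophins are secreted growth factors that bind Trk receptor tyrosine kinases. BDNF signals through TrkB, the product of Ntrk2, and neurotrophin-3, the product of Ntf3, signals mainly through TrkC, the product of Ntrk3. Sortilin, encoded by Sort1, is a sorting receptor that binds the uncleaved BDNF precursor. Bdnf is known for its many promoters: each joins its own 5′ exon to a shared 3′ exon that holds the coding sequence, and the promoter of exon IV is the best known for its response to neuronal activity through CREB.

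In the mouse genome (GRCm38, GENCODE M21 models), Bdnf lies on the plus strand at chr2:109674700-109727007. Its 11 transcripts fell into 8 start groups, defined as transcripts whose 5′ ends lie within 200 bases of each other, and these match exons I to VIII in order. All 11 end in the same exon of 3626 bases at chr2:109723382-109727007. The exon IV form, Bdnf-209, has only 339 bases of its own first exon, so its estimated counts rest on a short stretch.

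The promoters of exon IV and exon I are shown because these were the most abundant forms after KCl at DIV7. They are the 250 bases before each start site, on the plus strand, from RefSeq (GRCm38.p6), at chr2:109692186-109692435 for exon IV and chr2:109674450-109674699 for exon I. Capitals mark TGACG, the core of a cAMP response element, read on the opposite strand, at -35 to -31 from the exon IV start.
Bdnf exon IV promoter: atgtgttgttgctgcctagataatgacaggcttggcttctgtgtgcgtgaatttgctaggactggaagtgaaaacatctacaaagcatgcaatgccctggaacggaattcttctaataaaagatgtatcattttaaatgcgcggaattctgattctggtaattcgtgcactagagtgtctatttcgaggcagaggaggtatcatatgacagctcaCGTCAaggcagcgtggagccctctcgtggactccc
Bdnf exon I promoter: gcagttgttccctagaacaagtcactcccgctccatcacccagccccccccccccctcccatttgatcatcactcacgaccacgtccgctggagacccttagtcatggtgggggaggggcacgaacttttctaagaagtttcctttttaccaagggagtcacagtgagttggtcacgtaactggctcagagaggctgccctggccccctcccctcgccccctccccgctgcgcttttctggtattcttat

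The 4 motifs below were searched on both strands of 7 Bdnf promoters and of 32851 promoters in all. The 7 are those of exons I, III, IV, V, VII and VIII and 1 window (chr2:109722671-109722920) that belongs to no start group; the promoters of exons II and VI were not searched. The core TGACG was found in 1 of the 7, that of exon IV, and in 17.8% of all promoters. The full element TGACGTCA, which contains the core, was in none of the 7 and in 1.55% of all. The E-box CACGTG was in none of the 7 and in 6.02% of all, and the AP-1 site TGANTCA was in 1 of the 7, that of exon III, and in 6.75% of all. These matches describe letters in the window and not binding.

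Bdnf RNA rose about 2-fold within 30 min of KCl at DIV7. It stood at 27.5 and 22.1 CPM in the libraries at rest and at 61.1 and 46.7 CPM after KCl, so the groups did not overlap. The log2 fold change was 1.12 (SE 0.15, n = 2 and 2; edgeR quasi-likelihood test, adjusted p = 0.00408). Of the 5 genes, 1 passed the test, against 17.0% of the 19822 genes tested (7.34% higher). By size of change Bdnf ranked 854th from the highest, with 95.7% of genes below it.

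Exon IV transcripts were the only Bdnf form to pass the test at DIV7. They went from 3.68 and 3.95 CPM at rest to 21.8 and 17.7 CPM after KCl, a fold of 5.18 (log2 2.37, SE 0.16; edgeR adjusted p = 0.0079), where 7.85% of 35247 start groups passed. By log2 change exon IV ranked 512th from the highest, with 98.5% of start groups below it. Leaving out either library at rest kept the size, at 2.32 without replicate 1 and 2.43 without replicate 2, but ended the call (edgeR adjusted p = 0.0772 and 0.0664); the number of start groups that passed fell from 2768 to 65 and 77.

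The other first exons moved less and none passed. Exon I transcripts were at 12 and 10.1 CPM at rest and at 21.2 and 14.5 CPM after KCl (log2 0.69, edgeR adjusted p = 0.125). Part of exon I is overlapped by an antisense gene, Gm45346, and the use of strand in the counting is not given in the sources used here; that gene held at most 26.3 estimated counts in any DIV7 library. Exon II transcripts were at 5.31 and 5.27 CPM and then at 9.62 and 7.47 CPM (log2 0.69, edgeR adjusted p = 0.089). Exon VI transcripts were at 5.10 and 2.16 CPM and then at 7.97 and 5.92 CPM (log2 0.93, edgeR adjusted p = 0.257). In each of these 3 forms both KCl libraries lay above both libraries at rest. How often this happened over all start groups was not counted, so it adds nothing to the tests. Exon III transcripts overlapped between the states, at 1.14 and 0.2 CPM against 0.856 and 0.702 CPM. Exon VII transcripts were at 0 in both libraries at rest and at 0.411 and 0.85 CPM after KCl (edgeR adjusted p = 0.0573). Exon V and exon VIII forms did not pass the filter on low counts at DIV7, so 6 of the 8 start groups were tested.

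**Figure D1:**
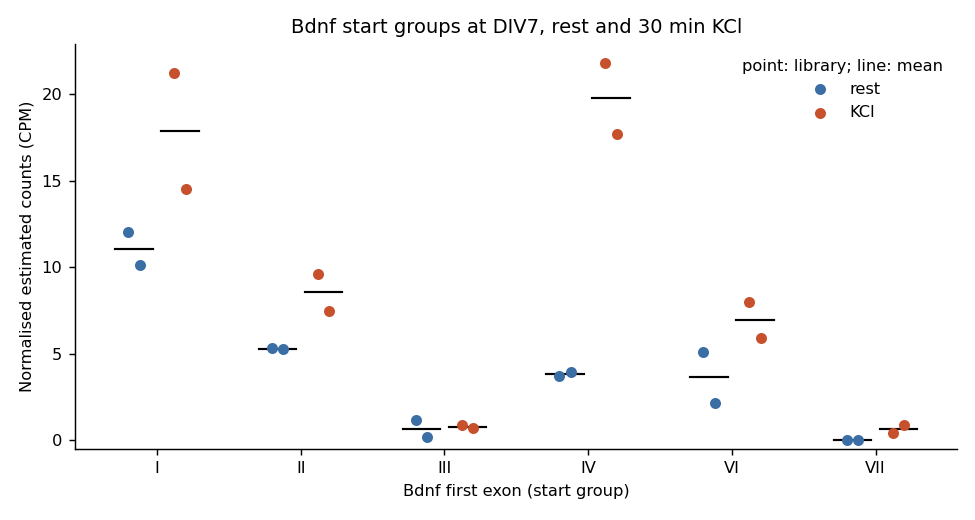
Normalised estimated counts (CPM) of each tested Bdnf first exon in the 4 DIV7 libraries, at rest (blue) and after 30 min KCl (orange); points are libraries and lines are means. Exon IV goes from 3.68 and 3.95 CPM to 21.8 and 17.7 CPM, and exon I and exon II rise less.

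As a share of Bdnf TPM, an abundance corrected for transcript length, exon IV went from 16.5% ± 3.38 (SD, n = 2) at rest to 37.4% ± 1.5 after KCl. Exon I went from 43.6% ± 1.64 to 30.9% ± 2.58, and exon II from 21.9% ± 3.28 to 15.6% ± 0.129. The test of exon IV use relative to the rest of the gene gave a difference of 0.84 on the natural-log scale (edgeR diffSpliceDGE, adjusted p = 0.0224), where 5.38% of 23474 start groups passed. Without any 1 of the 4 libraries the difference stayed at 0.69 to 0.99 and did not pass (edgeR adjusted p = 0.0551 to 0.238). On data simulated with 200 changed start groups, 36.4% of the calls of this usage test were false, against 19.1% for the test of the level. The counts differ in rule: a usage call was false only where its gene held no changed start group. A level call was false where that start group itself was unchanged. The usage test was thus the less secure of these tests there. The false share depends on how many start groups change, so it is not the error rate of this call.

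The response of Bdnf was smaller and did not pass at DIV18. At rest, Bdnf was at 9.98 and 7.57 CPM in NT libraries, at 12.4, 8.28 and 13.9 CPM with vector and at 9.96 and 8.17 CPM with wild-type Smarcc2. After KCl it was at 9.9 and 15.2 CPM, at 8.09, 11.0 and 16.6 CPM, and at 7.87, 12.8 and 19.2 CPM in the same order. Rest and KCl libraries overlapped in each of the 3 constructs.

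Averaged over NT, vector and wild type, the log2 change was 0.37 (SE 0.19; edgeR adjusted p = 0.688). None of the 5 genes passed that comparison in edgeR, with 1 at an unadjusted p under 0.05 and none by DESeq2; 0.449% of 20940 genes passed, and 7.95% had an unadjusted p under 0.05. Taken singly, the log2 change was 0.51 in NT, 0.04 with vector and 0.55 with wild type (edgeR adjusted p = 1.0, 0.979 and 0.977, with 0.00955%, 0.0716% and 0.043% of genes passing). The difference between the DIV7 response and the mean DIV18 response was 0.77 (SE 0.37; edgeR adjusted p = 0.357, with 4.06% of genes passing), so a difference between the ages was not established.

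Exon IV followed the same course. At rest, exon IV transcripts were at 0.726 and 1.85 CPM in NT libraries, at 3.45, 1.57 and 1.58 CPM with vector and at 0.619 and 0.811 CPM with wild-type Smarcc2. After KCl they were at 2.72 and 1.6 CPM, at 1.75, 2.02 and 2.71 CPM, and at 0.952, 4.31 and 3.16 CPM. In the wild-type libraries alone all 3 KCl values lay above both values at rest, by a log2 change of 1.96 that did not pass (edgeR unadjusted p = 0.00573, adjusted p = 1.0, with 0.00777% of start groups passing). The mean response over the 3 constructs was 0.89 (SE 0.33; edgeR adjusted p = 0.611, with 0.109% of 38596 start groups passing). The DIV7 response exceeded it by 1.54 (SE 0.63; edgeR adjusted p = 0.305, with 1.58% passing), a comparison added after the data were seen.

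Exon VI was the leading Bdnf form at DIV18. Its share of Bdnf TPM was 43.4% on average over the 20 DIV18 libraries (28.5% to 71.6%), against 13.9% over the 4 DIV7 libraries (10.2% to 19.4%). Exon I had 15.5% (3.97% to 24.5%) at DIV18 and 37.2% (29.1% to 44.7%) at DIV7. The ranges of the 2 ages did not overlap for either exon, and age and RNA preparation cannot be told apart in them. At DIV18 single forms rest on few reads, as the spread of the shares shows.

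**Figure D2:**
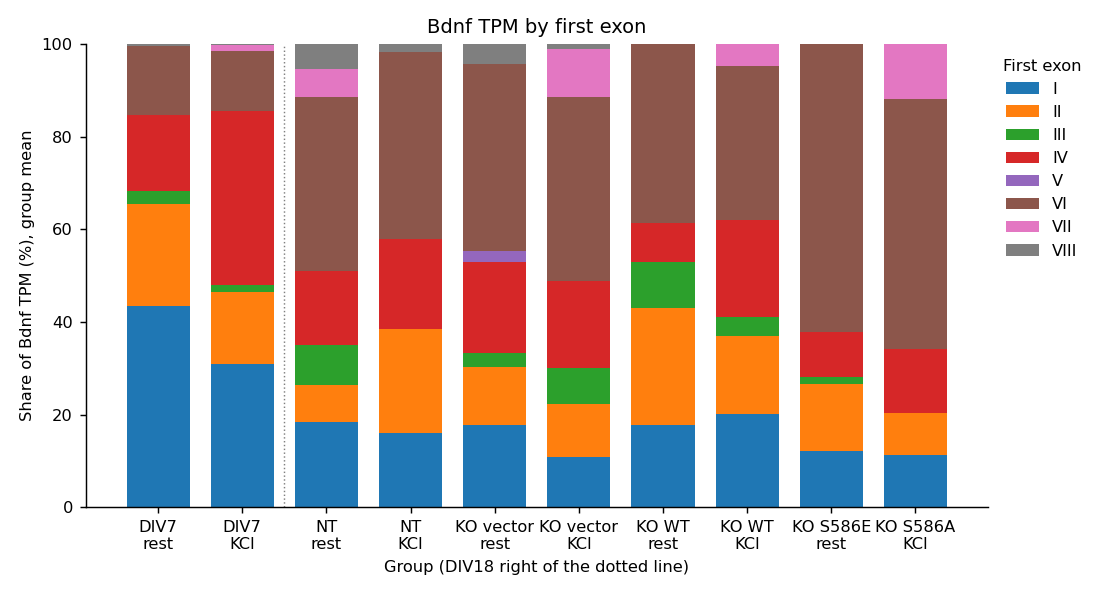
Share of Bdnf TPM (%) from each first exon, as the mean of each group; DIV7 groups stand left of the dotted line and DIV18 groups right of it. Exon IV goes from 16.5% to 37.4% between the DIV7 groups, and exon VI averages 43.4% over the DIV18 libraries.

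The S586E libraries at rest held the highest exon VI values. They were at 9.88, 8.3 and 8.93 CPM, against 3.14 and 3.67 CPM with wild-type Smarcc2 and 5.92, 3.15 and 4.66 CPM with vector, with no overlap in either comparison. The log2 differences were 1.40 against wild type (SE 0.43; edgeR adjusted p = 0.404, with 0.00259% passing) and 0.98 against vector (SE 0.37; edgeR adjusted p = 0.826, with 0.0311% passing), and neither passed. For the whole gene, S586E libraries were at 14.8, 11.6 and 19.2 CPM, which is 0.75 above wild type on the log2 scale (SE 0.34; edgeR adjusted p = 0.362). In that comparison none of the 5 genes passed in edgeR, 3 had an unadjusted p under 0.05, DESeq2 called Ntrk3 (adjusted p = 0.0293), and 0.0% of 20940 genes passed in edgeR (12.9% at an unadjusted p under 0.05, and 316 genes by DESeq2). After KCl, S586A libraries were at 9.56 and 8.27 CPM, within the range of the wild type. The genes whose level was most like that of Bdnf over the 20 DIV18 libraries, among 13143 genes, were Nrcam (Pearson r = 0.871), Ahi1 (0.849), Ralgps2 (0.848), Cdh4 (0.834) and Zfp346 (0.829); these points share libraries and depth.

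Ntf3, the neurotrophin-3 gene (chr6:126101412-126166910, minus strand), was at 6.67 and 6.93 CPM at rest and at 5.54 and 5.68 CPM after KCl at DIV7. Both KCl values were lower, by 0.28 on the log2 scale, without passing (SE 0.125; edgeR adjusted p = 0.186). At DIV18 it lay between 0.261 and 1.92 CPM in all 20 libraries.

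Per length, the medians of the 5 genes kept the same order at both ages. At DIV7 the median over 4 libraries was 121 TPM for Ntrk2 (116 to 124), 57.1 for Sort1 (55.8 to 58.5), 38.7 for Ntrk3 (34.0 to 39.8), 16.5 for Bdnf (9.85 to 27.0) and 9.38 for Ntf3 (8.27 to 10.5). Bdnf and Ntf3 overlapped, and the others did not. At DIV18 the medians over 20 libraries were 58.1 TPM for Ntrk2 (40.0 to 76.8), 38.5 for Sort1 (28.0 to 46.7), 19.4 for Ntrk3 (12.3 to 21.8), 2.28 for Bdnf (1.5 to 4.36) and 0.483 for Ntf3 (0.172 to 1.18). There only Ntrk2 and Sort1 overlapped. The ages are set side by side without a test.

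**Figure D3:**
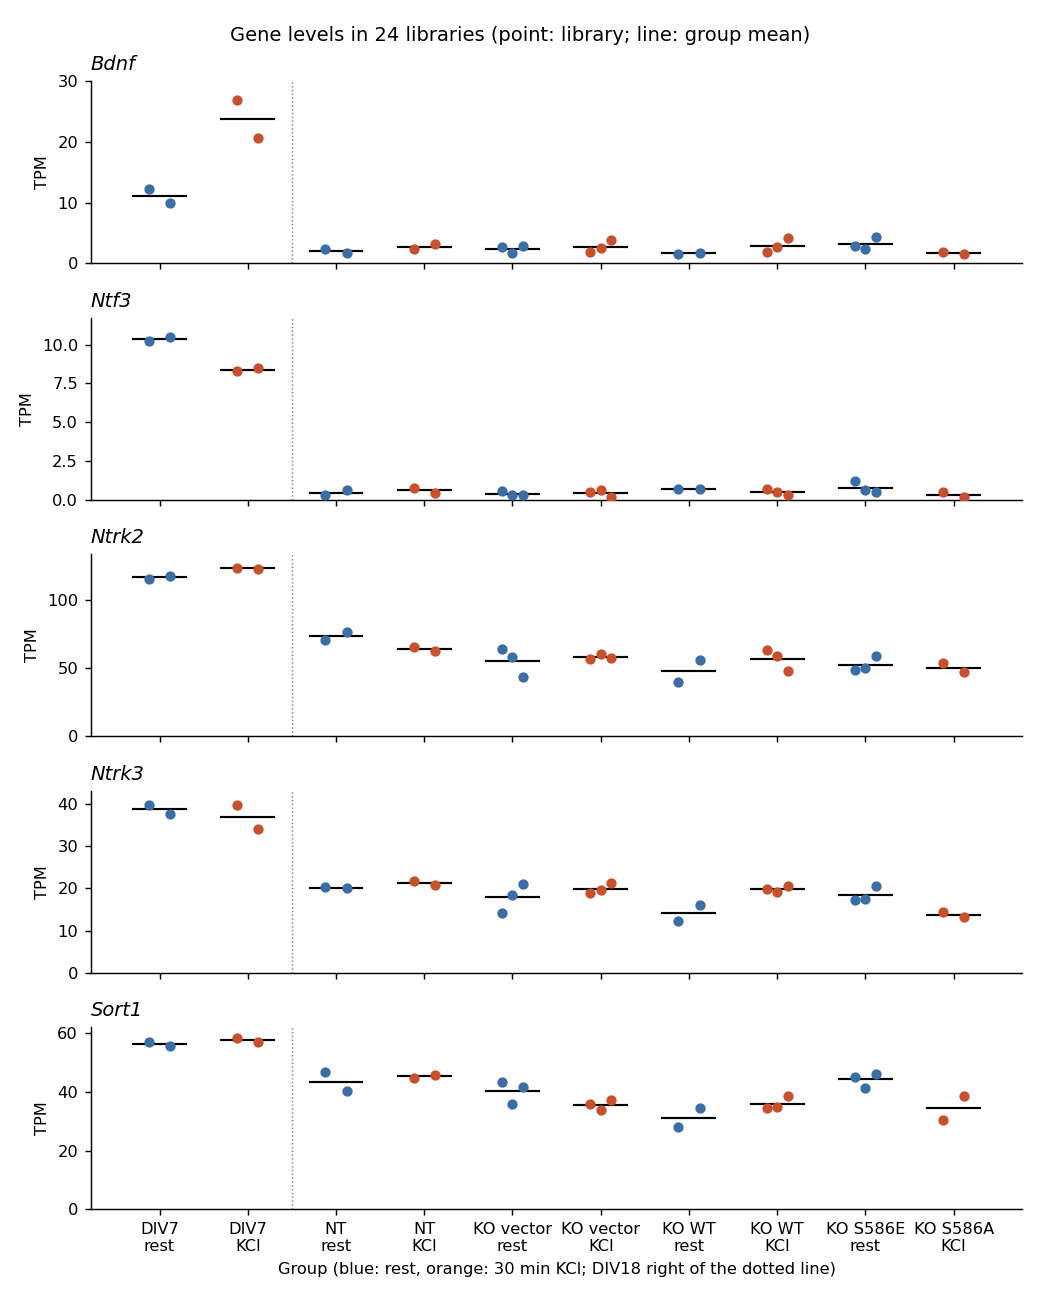
Level (TPM) of each of the 5 genes in all 24 libraries, at rest (blue) and after 30 min KCl (orange); points are libraries, lines are group means, and the dotted line separates DIV7 from DIV18. Bdnf goes from 12.3 and 9.85 TPM to 27.0 and 20.7 TPM at DIV7, while the receptors change little between states.

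Ntrk2 (chr13:58806569-59133970, plus strand) makes full-length TrkB, which carries the kinase domain, and truncated receptors that lack it. Ntrk2-201 and Ntrk2-207 encode the full-length receptor in 2463 coding bases. Ntrk2-202 and Ntrk2-204 encode T1, the common truncated receptor, in 1428 coding bases, and T1 is known to be the main TrkB form of astrocytes. Ntrk2-205 ends in yet another exon, after 1476 coding bases. The sequences below show the point where the 3 forms part: lower case marks the exon they share, and capitals mark the coding bases that follow, at chr13:58985802-58985839 for Ntrk2-201, chr13:58932023-58932060 for Ntrk2-202 and chr13:58878339-58878424 for Ntrk2-205. The truncated forms are shown to their stop codons.
Ntrk2-201 (full length): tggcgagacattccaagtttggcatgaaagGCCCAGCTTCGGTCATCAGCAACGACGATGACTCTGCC
Ntrk2-202 (T1): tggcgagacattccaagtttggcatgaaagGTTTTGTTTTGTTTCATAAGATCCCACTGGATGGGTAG
Ntrk2-205: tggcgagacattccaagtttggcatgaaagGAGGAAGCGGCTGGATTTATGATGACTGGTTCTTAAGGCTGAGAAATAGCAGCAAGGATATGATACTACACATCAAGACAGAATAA

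The main Ntrk2 forms did not pass the test after KCl at DIV7. Full-length forms were at 403 and 422 CPM at rest and at 442 and 441 CPM after KCl (log2 0.10, SE 0.04; edgeR adjusted p = 0.176). T1 forms were at 48.7 and 38.1 CPM and then at 41.9 and 41.7 CPM, with overlapping groups (log2 -0.06, SE 0.12; edgeR adjusted p = 0.815). For the whole gene the log2 change was 0.08 (edgeR adjusted p = 0.175).

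Minor truncated forms rose, as did the noncoding model Ntrk2-210 at a very low level, with means of 0.127 CPM at rest and 0.429 CPM after KCl. Ntrk2-205 went from 1.95 and 2.64 CPM to 6.21 and 6.21 CPM (log2 1.44, SE 0.22; edgeR adjusted p = 0.0199), where 10.6% of 33710 groups of transcripts with a shared stop codon passed. Its share of Ntrk2 coding TPM went from 1.68% ± 0.332 to 4.2% ± 0.0172 (SD, n = 2). Its use relative to the rest of the gene was higher by 0.93 on the natural-log scale (edgeR diffSpliceDGE, adjusted p = 0.00823, with 6.25% of 23457 stop groups passing). The usage call was lost without any 1 of the 4 libraries. Without replicate 1 at rest the log2 change in the level of Ntrk2-205 was 1.23 and did not pass. Ntrk2-208 and Ntrk2-209, which start together and have stop codons of their own, went from 1.04 and 1.24 CPM to 3.39 and 3.51 CPM (log2 1.60, SE 0.24; edgeR adjusted p = 0.0328). That call was lost without any 1 of the 4 libraries, with log2 changes of 1.48 to 1.73. At DIV18, Ntrk2-205 lay between 0.761 and 7.66 CPM, and its mean response of 0.39 did not pass (edgeR adjusted p = 0.895, with 0.126% of stop groups passing). Means of Ntrk2-208 and Ntrk2-209 together went from 2.57 CPM at rest to 1.08 CPM after KCl in NT. They went from 1.98 to 1.5 CPM with vector and from 1.72 to 2.11 CPM with wild-type Smarcc2.

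The full-length share of Ntrk2 coding TPM was 83.2% and 86.3% at rest and 82.6% and 83.3% after KCl at DIV7. The difference of -1.82 percentage points had p = 0.667 (exact permutation test, two-sided, adjusted p = 0.667), in a design whose smallest possible p is 0.333. Over NT, vector and wild type at DIV18 the difference was 3.1 points (exact permutation test within constructs, two-sided, p = 0.346, adjusted p = 0.489). In all 4 such shares were tested, for Ntrk2 and Ntrk3 at both ages.

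The level of T1 at DIV18 was lower with vector than in NT in both states, without passing the test. At rest T1 forms were at 130 and 175 CPM in NT libraries, at 86.4, 74.2 and 16.7 CPM with vector, at 82.0 and 94.5 CPM with wild-type Smarcc2 and at 57.0, 66.9 and 55.4 CPM with S586E. After KCl they were at 94.4 and 131 CPM in NT, at 50.3, 66.7 and 44.1 CPM with vector, at 70.6, 104 and 34.8 CPM with wild type and at 79.6 and 51.5 CPM with S586A. NT libraries lay above all vector libraries in both states.

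Full-length forms did not follow this pattern. They were at 365 and 355 CPM in NT and at 394, 378 and 329 CPM with vector at rest (log2 0.03, SE 0.07; edgeR adjusted p = 0.925), where 1.44% of 36494 stop groups passed. The T1 difference between vector and NT was -1.36 at rest (SE 0.47; edgeR adjusted p = 0.187) and -1.07 after KCl (SE 0.48; edgeR adjusted p = 0.413, with 0.532% passing), and neither passed. Use of Ntrk2-202 within the gene was lower with vector at rest by 0.81 on the natural-log scale and passed (edgeR diffSpliceDGE, adjusted p = 0.0289), where 0.0377% of 26492 start groups passed in that direction. After KCl it was lower by 0.63 on the same scale and did not pass (edgeR adjusted p = 0.239, with 0.185% passing). The call at rest was lost without vector replicate 3 (edgeR adjusted p = 0.145), without NT replicate 1 (edgeR adjusted p = 0.113) and without NT replicate 2 (edgeR adjusted p = 0.62), with differences of -0.60, -0.92 and -0.68. The whole gene was 0.26 lower on the log2 scale with vector than in NT at rest, with no overlap, and did not pass (edgeR adjusted p = 0.16, with 5.9% of all genes passing, and 100, 802 and 724 genes in place of 1236 without NT replicate 2, NT replicate 1 and vector replicate 1).

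Astrocyte markers were lower with vector than in NT, as T1 was, but their sum did not follow T1 in every group. The summed level of 9 astrocyte genes was 1470 to 1680 CPM in NT at rest and 917 to 1300 CPM with vector at rest, and 1340 to 1840 CPM and 776 to 902 CPM after KCl. With S586E at rest the sum was higher than with wild-type Smarcc2 (1200 to 1320 CPM against 948 to 1130 CPM) while T1 was lower. The median log2 difference of the 9 genes in that comparison was -0.12, so the sum and the median differed in direction. In NT the mean sum was 1580 CPM at rest and 1590 CPM after KCl while mean T1 was 153 and 113 CPM. The median log2 change of the 9 genes there was -0.05. Against NT at rest, 2 of the 9 were lower with vector by the edgeR test (Slc1a2 and Fgfr3), where 5.9% of all genes passed, the median log2 difference of the 9 was -0.76, and no marker of the list was at 0 in every library of a group. In the same comparison 4 of 8 oligodendrocyte-lineage genes and 1 of 3 tested microglia genes (Csf1r) were lower. Of 9 neuron genes 1, Slc17a6, was higher with vector (log2 0.84, edgeR adjusted p = 0.00292) and none was lower. Neuron marker sums overlapped, at 5010 to 5060 CPM and 4770 to 5490 CPM. Genes whose level was most like T1 over the 20 DIV18 libraries, among 13143 genes, included Sox9 (Pearson r = 0.979), Apoe (0.978), Gstm1 (0.972) and Plekhb1 (0.971); Sox9 is in the astrocyte list, and these points share libraries and depth. The part of astrocyte content in the T1 difference was not tested, and in bulk RNA fewer cells of a type and less RNA per cell cannot be told apart.

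**Figure D4:**
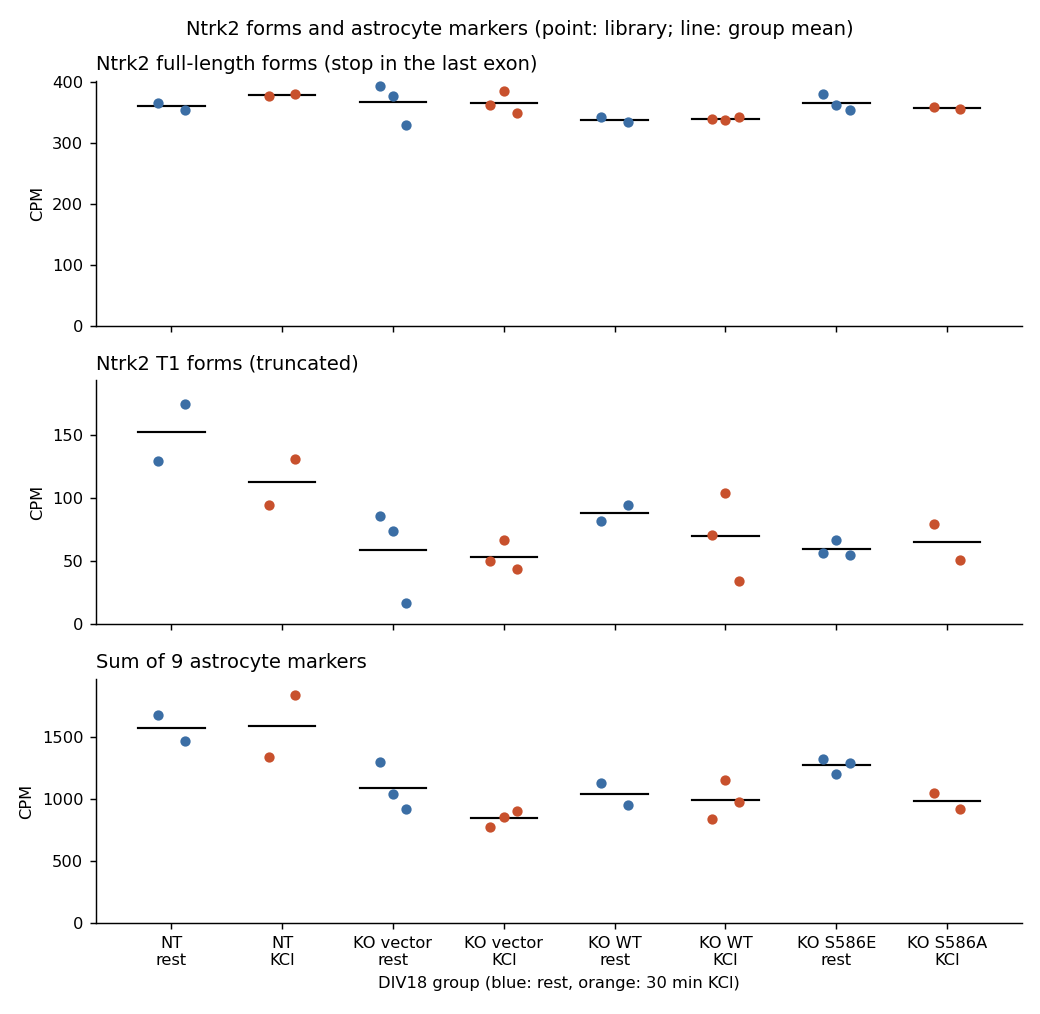
CPM of full-length Ntrk2 forms, of T1 forms and of the sum of 9 astrocyte markers in the 20 DIV18 libraries, at rest (blue) and after 30 min KCl (orange); points are libraries and lines are group means. T1 is at 130 and 175 CPM in NT at rest and at 16.7 to 86.4 CPM with vector, and full-length forms are at 329 to 394 CPM in those groups.

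As shares of coding TPM, the full-length form made up 67.3% and 59.1% in NT at rest, the lowest of the DIV18 groups, and 75.8%, 78.9% and 88.7% with vector. T1 accounted for 33.1% ± 4.67 (SD, n = 2) in NT at rest and 15.5% ± 8.66 (n = 3) with vector. Over all DIV18 libraries T1 ranged from 5.68% to 36.4%, and over all DIV7 libraries from 10.6% to 14.7%.

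Ntrk3 (chr7:78175959-78738012, minus strand) likewise makes full-length TrkC and a truncated form, Ntrk3-202, without the kinase domain. At DIV7 full-length forms were at 203 and 203 CPM at rest and at 188 and 176 CPM after KCl (log2 -0.16, SE 0.05; edgeR adjusted p = 0.108). The truncated form was at 27.0 and 22.9 CPM and then at 30.6 and 25.4 CPM, with overlap (log2 0.17; edgeR adjusted p = 0.483). The full-length share of coding TPM was 63.2% and 67.4% at rest and 59.4% and 63.0% after KCl, a difference of -4.12 points (exact permutation test, two-sided, p = 0.333, adjusted p = 0.489, the smallest p being 0.333). At DIV18 the difference was -1.26 points (exact permutation test, p = 0.367, adjusted p = 0.489).

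Full-length Ntrk3 was lower with vector than in NT after KCl, without passing. It was at 194 and 231 CPM in NT and at 149, 144 and 167 CPM with vector (log2 -0.47, SE 0.11; edgeR adjusted p = 0.0848). The truncated form was at 18.8 and 19.1 CPM in NT and at 20.1, 24.3 and 24.3 CPM with vector, so it was higher rather than lower (log2 0.27; edgeR adjusted p = 0.487). For the whole Ntrk3 gene the log2 difference was -0.37 (SE 0.11; edgeR adjusted p = 0.0646), and for Sort1 it was -0.39 (SE 0.115; edgeR adjusted p = 0.0766). None of the 5 genes passed in edgeR, 2 had an unadjusted p under 0.05, DESeq2 called both (adjusted p = 0.0264 and 0.0284), and edgeR with the replicate number as a block called Ntrk3 (log2 -0.44, adjusted p = 0.00822). In edgeR 2.67% of all genes passed, with 16.6% at an unadjusted p under 0.05. Those 560 genes became 37 without NT replicate 2, 241 without NT replicate 1, and 186, 170 and 186 without vector replicates 1, 2 and 3. With S586E at rest, Ntrk3 was at 201, 209 and 211 CPM against 162 and 155 CPM with wild-type Smarcc2 (log2 0.39; edgeR adjusted p = 0.145). Sort1 was at 410, 367 and 349 CPM against 307 and 285 CPM in the same comparison (log2 0.34; edgeR adjusted p = 0.231). The groups did not overlap for either gene, but neither gene passed in edgeR, and such separation was not counted over all genes.

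Sort1 (chr3:108284082-108361511, plus strand) held the steepest fall after KCl among the tested start groups of the 5 genes at DIV7. Sort1-202 is a noncoding model that retains an intron, at chr3:108355467-108361438. It was at 7.18 and 7.43 CPM at rest and at 0.274 and 0.481 CPM after KCl at DIV7 (log2 -4.27, SE 0.31; edgeR adjusted p = 0.00951), where 5.1% of start groups passed as lower. It ranked 288th from the lowest of 35247 start groups. Its share of Sort1 TPM went from 4.59% ± 0.164 to 0.22% ± 0.0971 (SD, n = 2). The usage test gave -3.04 on the natural-log scale, not log2 (edgeR diffSpliceDGE, adjusted p = 0.000445).

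The call on the level of Sort1-202 was lost without either library at rest (edgeR adjusted p = 0.0742 and 0.0706), while the log2 change was -4.29 and -4.24. The coding forms went the other way and did not pass, from 203 and 200 CPM to 229 and 224 CPM (log2 0.17, SE 0.04; edgeR adjusted p = 0.0709). For the whole gene the log2 change was 0.08 (edgeR adjusted p = 0.219). At DIV18 Sort1-202 lay between 0 and 2.69 CPM in all libraries, and its mean response of -0.69 did not pass (edgeR adjusted p = 0.944).

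The 2 coding forms of Sort1 differ by 1 exon of 99 bases, present in Sort1-203 (2574 coding bases) and absent from Sort1-201 (2475). This exon, whose inclusion is known to be held down by the RNA-binding protein TDP-43, lies at chr3:108355472-108355570, inside the stretch covered by Sort1-202. It is shown in capitals with its flanking exon bases in lower case, because its share did not overlap between the ages.
Sort1-203 extra exon: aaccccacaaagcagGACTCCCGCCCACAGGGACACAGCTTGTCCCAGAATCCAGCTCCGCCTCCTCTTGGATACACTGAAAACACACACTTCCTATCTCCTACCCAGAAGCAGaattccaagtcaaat

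Sort1-203 made up 54.3% ± 0.2 (SD, n = 2) of the TPM of the 2 coding forms at rest and 49.6% ± 5.93 after KCl at DIV7. At DIV18 it made up 10.1% on average, from 3.94% to 19.1% over 20 libraries. The ranges of the ages did not overlap, and age and RNA preparation cannot be told apart.

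**Figure D5:**
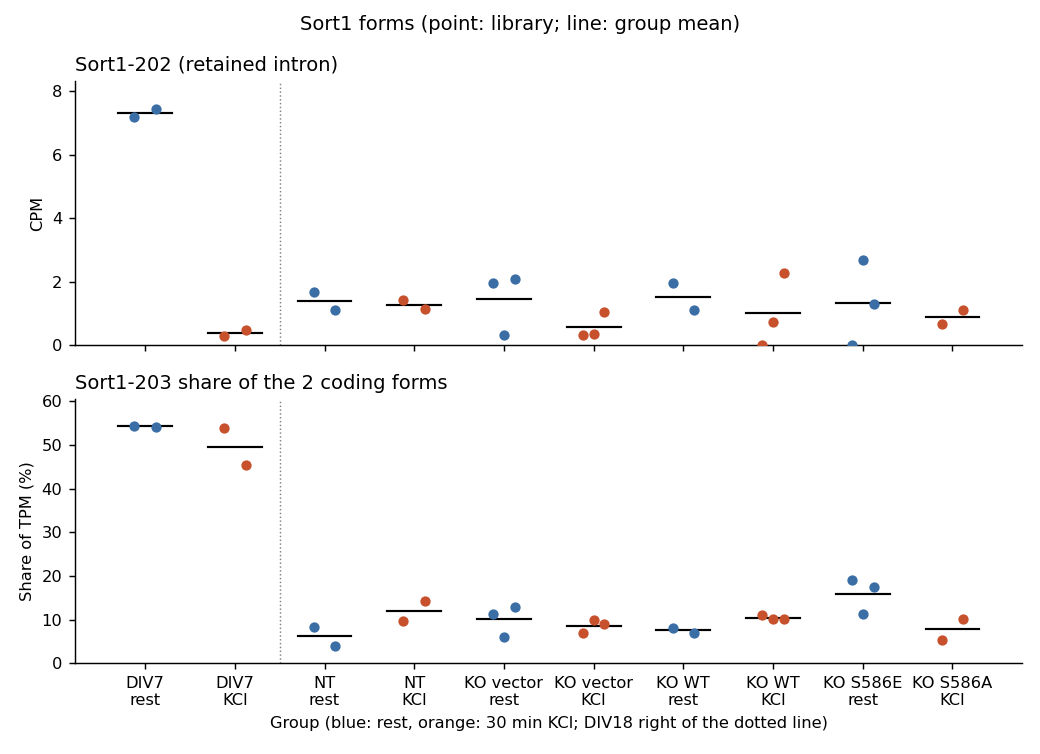
CPM of the retained-intron model Sort1-202 and the share (%) of Sort1-203 in the TPM of both coding forms, in 24 libraries at rest (blue) and after 30 min KCl (orange); points are libraries, lines are group means, and the dotted line separates DIV7 from DIV18. Sort1-202 falls from 7.18 and 7.43 CPM to 0.274 and 0.481 CPM at DIV7, and Sort1-203 lies at 45.4% to 54.4% at DIV7 and at 3.94% to 19.1% at DIV18.

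The pathway lists held calls in both directions after KCl at DIV7, where 17.0% of all genes passed. Of 4 neurotrophin ligands tested at DIV7, Bdnf alone passed, and of 9 receptors and sortilin relatives none did. Among 9 genes of precursor cleavage and sorting, 2 were higher and 2 lower. Pcsk1, the prohormone convertase of regulated secretion, was at 13.2 and 15.7 CPM at rest and at 70.0 and 75.2 CPM after KCl (log2 2.32; edgeR adjusted p = 2.33e-05). Plat, tissue plasminogen activator, rose by 0.32 on the log2 scale (edgeR adjusted p = 0.0195). Furin, the convertase of the constitutive pathway, fell by 0.33 on the log2 scale and Pcsk7 fell by 0.41 (edgeR adjusted p = 0.0321 and 0.0146).

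Of 17 Trk adaptors and effectors 3 passed, a share near the 17.0% of all genes. Sos1 and Crkl were higher (log2 0.39 and 0.35; edgeR adjusted p = 0.00318 and 0.0103) and Shc2 was lower (log2 -0.24; edgeR adjusted p = 0.0493). Among 14 known regulators of Bdnf transcription 3 were higher and 1 lower, against 17.0% of all genes passing in either direction. Npas4, an activity-induced factor, went from 3.75 and 4.83 CPM to 178 and 183 CPM (log2 5.40; edgeR adjusted p = 3.62e-07). Crem, a relative of CREB that includes inducible repressors, went from 9.59 and 9.79 CPM to 35.2 and 35.8 CPM (log2 1.87; edgeR adjusted p = 2.85e-05). Mef2c was higher by 0.16 and Crtc1, a CREB coactivator, was lower by 0.23 on the log2 scale (edgeR adjusted p = 0.0274 and 0.0182). The list medians were 0.04, 0.08, 0.16, 0.05 and 0.07 in the order given, against -0.001 over all genes. Across these lists Npas4 was the single gene to pass in the mean DIV18 response (log2 5.65; edgeR adjusted p = 2.07e-06). Between vector and NT at rest, Sorl1, Pcsk7, Cadps2 and Usf1 were higher and Pcsk6, Shc1, Crkl and Rest were lower by the edgeR test, where 5.9% of all genes passed. After KCl none of these 8 passed in edgeR, and 1 of them, Crkl, had an unadjusted p under 0.05. Sorcs1, a relative of sortilin, was then the single listed gene to pass, at 26.3 to 35.5 CPM in NT and 11.9 to 12.9 CPM with vector (log2 -1.31; edgeR adjusted p = 0.0162).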

How the data were processed

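RNA-seq libraries of cultured mouse cortical neurons were quantified per transcript, and the deposited tables hold estimated counts and TPM for 142552 transcripts in each of 24 libraries. Per the submitters' processing notes, the authors used FastQC, cutadapt and kallisto; the versions, the genome build and the use of strand are not given in the sources used here. Of the transcripts, 99.2% matched GENCODE M21 (GRCm38) by identifier, and the unmatched ones held at most 0.467% of the estimated counts of a library. Matched totals were 24422254 to 29995001 per DIV7 library and 14447367 to 23926652 per DIV18 library.

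The deposited estimated counts were summed per gene, per start group (5′ ends within 200 bases) and per stop group (coding transcripts that share a stop codon), then rounded. edgeR 4.0.16 (R 4.3.3) was used with its low-count filter, TMM scaling, the quasi-likelihood test and Benjamini-Hochberg adjustment at 0.05, fitted on DIV7 and DIV18 libraries separately across all features. Usage was tested with diffSpliceDGE, whose differences are given on the natural-log scale, whereas changes in level are in log2. Standard errors are the log2 fold change divided by the root of the F statistic. Shares were computed from the deposited TPM and compared by exact permutation over libraries. DESeq2 1.42.0 was an alternative. P-values measure the spread between these libraries only. Where groups are said not to overlap, the share of all features that separated in the same way was not counted.

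The members and gene lists were chosen with earlier results of these data known. Named genes are the 5 members, their tested start and stop groups, listed pathway genes with an adjusted p under 0.05, and the 5 genes most correlated with Bdnf or T1, of which 1 is not reported here. On data simulated with 200 changed features, the gene test at DIV7 recovered 82.7% of 2-fold and 97.9% of 4-fold changes with 14.3% of its calls false, the start-group test at DIV7 recovered 37.1% and 69.4% with 19.1% false, and its usage test recovered 12.9% and 36.4%. In vector libraries, the deviations of same-numbered rest and KCl samples correlated at 0.16, 0.131 and 0.327, and those of differently numbered samples at -0.305 to 0.205. No label marks the numbers as pairs. The main tests used no pairing, and the replicate number entered only as a block in an alternative fit.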

Additional observations from a re-analysis of the deposited data

How the results depend on the processing

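Of 436 alternative values for 37 results, those below changed direction or side of the threshold in edgeR; the cause was not tested. Leaving out 1 library at a time gave log2 values of 2.22 to 2.53 for exon IV level at DIV7, 1.23 to 1.66 for Ntrk2-205 and -4.70 to -3.91 for Sort1-202. Usage values, on the natural-log scale, were 0.69 to 0.99 for exon IV and -0.96 to -0.60 for Ntrk2-202 between vector and NT at rest. Each of these lost some or all calls as given above, and Bdnf at DIV7 kept its call at log2 0.91 to 1.30. Without the low-count filter, exon IV usage (0.85, edgeR adjusted p = 0.0632) and Ntrk2-202 usage (-0.81, edgeR adjusted p = 0.0799) no longer passed, and the mean DIV18 response of Bdnf passed (0.36, edgeR adjusted p = 0.0445). Directions reversed for values near 0: the Bdnf response with vector was -0.27 without KCl replicate 3 and -0.15 without rest replicate 2 (range -0.27 to 0.26), the mean DIV18 response of Ntf3 was 0.01, 0.02, 0.00 and 0.05 without single libraries (range -0.23 to 0.05), and Sort1 between vector and NT at rest was 0.00 with DESeq2, 0.01 with the compared groups alone, 0.00 with median-of-ratios scaling and -0.10 to 0.09 without single libraries.

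With the replicate number as a block, Bdnf at DIV7 gave log2 1.12 (edgeR adjusted p = 6.35e-09) and exon IV log2 2.37 (edgeR adjusted p = 0.022). Exon IV usage gave 0.84 on the natural-log scale (edgeR adjusted p = 0.0196). The block also brought Ntrk2 (0.08) and Ntrk3 (-0.14) at DIV7 and Ntrk3 between vector and NT after KCl (-0.44) past the threshold, and Ntrk2-208 and Ntrk2-209 (1.60) no longer passed. In NT, same-numbered samples correlated at -0.121, and the NT response held 2 calls without a block, 8 with the replicate block and 6 with the crossed pairing, which was added after the data were seen. Genes called at DIV7 numbered 3371, against 5857 with the block, 2217 with DESeq2 and 1459 to 2630 without single libraries. For the mean DIV18 response the 94 genes became 442 without the filter, 151 with DESeq2, 51 with length offsets and 28 to 95 without single libraries, lowest without wild-type rest replicate 1 (28) and NT rest replicate 1 (36). Between vector and NT at rest the 1236 genes became 2016 without the filter, 681 with length offsets and 100 without NT replicate 2. After KCl the 560 genes between vector and NT became 37 to 241 without single libraries, 1437 without the filter, 943 with DESeq2 and 278 with length offsets. At DIV7 the start-group test recovered 37.1% of simulated 2-fold changes, so a form that did not pass may still have changed by that much.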
